A study of Caenorhabditis elegans with 24 samples.

Results

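The genes described here are 30 enzymes of *C. elegans* that carry out glycolysis, gluconeogenesis, the glyoxylate shunt, the use of pyruvate and alcohol dehydrogenation. They are a named set of enzymes, listed with earlier results of these data known, out of 46926 genes in the count table, and all 30 were matched to a gene of the WBcel235 annotation (29 by name and *sodh-1*, annotated there as *adh-1*, by an older name). The worms were wild type (strain N2), collected whole, and gave 24 RNA-seq libraries, 3 biological replicates in each of 8 groups. In each of 4 successive generations a hypoxia group reached the L4 larval stage and then spent 16 hours at 0.1% oxygen, and its normoxia group of the same generation stayed at atmospheric oxygen throughout. The exposures are numbered 1 to 4 here, so a hypoxia library of exposure 4 comes from worms whose ancestors had been through the 3 earlier exposures. The worms were pelleted at the end of the exposure, so each value is the mean over a whole population of bodies. In such samples fewer cells of a type and less RNA per cell cannot be told apart.

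Glycolysis splits glucose into pyruvate and yields ATP without oxygen, and lactate dehydrogenase then renews the NAD that glyceraldehyde-3-phosphate dehydrogenase consumes. Gluconeogenesis runs the same path backward past the irreversible steps with its own enzymes, PEP carboxykinase, fructose-1,6-bisphosphatase and pyruvate carboxylase. Worms, unlike mammals, also own a glyoxylate shunt, which lets them build sugar from fat. Pyruvate dehydrogenase commits pyruvate to oxidation in the mitochondrion, and in many animals the transcription factor HIF-1 raises glycolytic genes when oxygen is low.

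Each library held 26862487 to 46228496 counted reads (median 33517710), and the 30 genes together held 0.788 to 2.08% of a library's counts. Values are given as CPM, counts per 1000000 of the normalized library size, in the order of replicates 1 to 3. Fold changes are log2 of hypoxia over normoxia with their standard errors, from edgeR's quasi-likelihood test in a separate fit of each exposure, and a gene was called where its p, adjusted by the method of Benjamini and Hochberg, was under 0.05. Samples are labelled as L4 worms, yet the 6 vitellogenin genes, which encode yolk proteins of the adult, summed to between 18405 and 55538 CPM in the hypoxia libraries and between 75641 and 101230 CPM in the normoxia libraries of exposure 1. Hypoxia replicate 2 of exposure 1 stood apart from its group. Its vitellogenin sum was 55538 CPM, against 23021 and 18405 CPM in replicates 1 and 3, and its 12 oocyte and eggshell genes summed to 9062 CPM, against 5948 and 5447 CPM. Normoxia replicate 1 of exposure 1 also differed from its group. In chi-square per gene between replicates, its pairs gave 151.5 and 192.7, against 22.95 for normoxia replicates 2 and 3. The pairs of hypoxia replicate 2 of exposure 1 gave 163.5 and 191.9, against 12.83 for hypoxia replicates 1 and 3. Exposure 1 was not alone in this. In exposure 4 the pairs of hypoxia replicate 1 gave 603.6 and 630.2, against 7.215 for hypoxia replicates 2 and 3. In exposure 3 hypoxia replicates 1 and 2 gave 269.9. Counts for exposure 1 are therefore also given without hypoxia replicate 2 and, in a separate fit, without normoxia replicate 1. The 6 molting genes, which peak before each molt, had 4, 4, 6 and 6 members called lower in exposures 1 to 4 and 0, 2, 0 and 0 called higher. Among all genes tested, 7.40, 36.3, 17.7 and 23.0% were called lower in these exposures and 13.3, 37.2, 12.4 and 27.1% higher. The part of developmental stage in the results below was not tested. Ribosomal RNA was highest in hypoxia replicate 1 of exposure 4, with 17.45% of counts, and hypoxia replicate 2 of exposure 3, with 10.3%, and without the ribosomal RNA genes no call of a member within an exposure changed.

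More of these enzymes were higher than lower in hypoxia in every exposure. All 30 genes were tested in each exposure. Of all genes tested, 20.7, 73.5, 30.1 and 50.1% were called in either direction in exposures 1 to 4. In exposure 1, 10 of the 30 were called higher (33.3%, with 13.3% of all genes tested called higher) and 0 lower (7.40% of all genes). For that 0, 1 member was lower at an unadjusted p under 0.05, and DESeq2 also called 0. Without hypoxia replicate 2 of exposure 1, 15 were called higher and 3 lower, where 20.6 and 16.4% of all genes were called. Without normoxia replicate 2, 6 were called higher and 0 lower, where 9.23 and 2.49% of all genes were called. Without normoxia replicate 1, 9 were called higher and 1 lower, and the share of all genes was not computed for that fit. A joint fit of the 24 libraries, with a single estimate of the spread for all exposures, called 17 higher and 4 lower in exposure 1, with 21.9 and 22.7% of all genes. In exposure 2, 20 were called higher (66.7%, all genes 37.2%) and 7 lower (23.3%, all genes 36.3%). Exposure 3 had 9 called higher (30%, all genes 12.4%) and 2 lower (6.67%, all genes 17.7%). Exposure 4 had 17 called higher (56.7%, all genes 27.1%) and 5 lower (16.7%, all genes 23.0%). The median log2 fold change of the 30 genes was 0.28, 0.52, 0.21 and 0.26 in exposures 1 to 4, beside medians of −0.02, −0.01, 0.03 and −0.0002 over all genes tested. All 3 hypoxia libraries lay above all 3 normoxia libraries for 16, 19, 15 and 17 of the 30 genes, and the same held for 20.0, 34.3, 23.6 and 34.0% of all genes. They lay below for 1, 7, 1 and 5 of the 30, and for 20.8, 44.0, 23.5 and 25.1% of all genes.

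In all, 6 of the 30 enzymes (20%) were called higher in all 4 exposures, against 4.45% of all genes. They were *aldo-1*, *gpd-2*, *gpd-3*, *ipgm-1*, *enol-1* and *pck-1*, that is an aldolase, a pair of glyceraldehyde-3-phosphate dehydrogenases, the phosphoglycerate mutase, the enolase and a PEP carboxykinase. Called higher in 3 exposures were 5 more (9.9% of all genes were called higher in exactly 3), *pfk-1.2* and *ldh-1* in exposures 1, 2 and 4, *aldo-2* in 1, 3 and 4, *tpi-1* in 1, 2 and 3 and *dld-1* in 2, 3 and 4. Only 1 member, the hexokinase *hxk-2*, was called lower in 3 exposures (4.47% of all genes), and 0 were called lower in all 4, where 1.98% of all genes were. *pck-2* and *pyk-1* were called in opposite directions in 2 exposures (12.2% of all genes were), and *pdhk-2*, the kinase that switches pyruvate dehydrogenase off, was called in none, as were 13.1% of all genes.

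**Figure D1:**
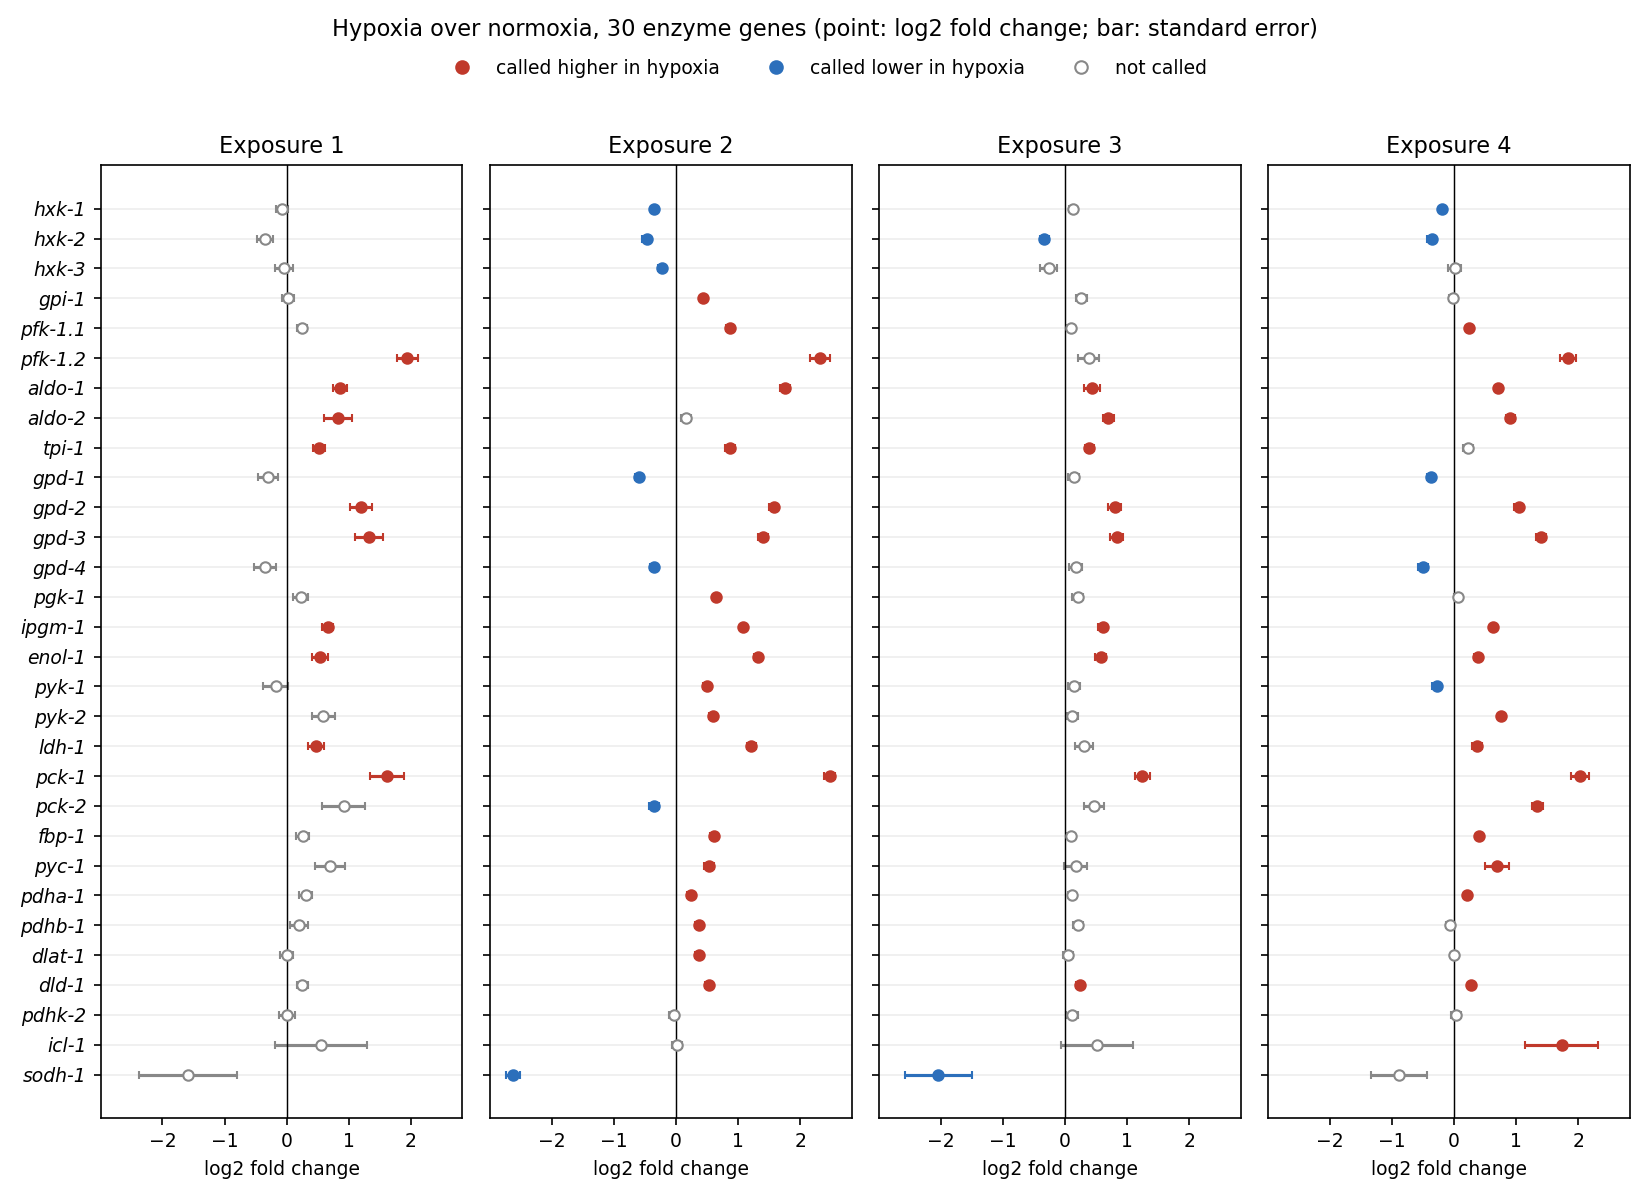
The plot of fold changes has 1 panel per exposure, with log2 fold change of hypoxia over normoxia on the horizontal axis, 1 gene per line and bars for the standard error. Red points were called higher (10, 20, 9 and 17 genes in exposures 1 to 4), blue points lower (0, 7, 2 and 5), and open points were not called.

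Glucose enters glycolysis through hexokinase, and the hexokinases did not rise. *hxk-2* (WBGene00010416, chromosome I, 11311524 to 11323110, minus strand) was at 41.9, 50.4 and 42.8 CPM in hypoxia against 62.1, 61.3 and 50.4 CPM in normoxia in exposure 1, and at 35.8, 40.1 and 41.9 CPM in hypoxia against 57.9, 61.3 and 56.2 CPM in normoxia in exposure 2. Later it was at 48.4, 49.7 and 45.8 CPM in hypoxia against 58.7, 63.6 and 58.5 CPM in normoxia in exposure 3, and at 52.5, 48 and 46.8 CPM in hypoxia against 62.5, 62.4 and 59.5 CPM in normoxia in exposure 4. The hypoxia libraries were below the normoxia libraries in every exposure, and the groups never overlapped, although in exposure 1 hypoxia replicate 2 lay just under normoxia replicate 3. *hxk-2* had log2 fold changes of −0.35 ± 0.12, −0.47 ± 0.08, −0.33 ± 0.08 and −0.36 ± 0.07 in exposures 1, 2, 3 and 4 (adjusted p = 0.0954, 0.000245, 0.013 and 0.00225), and so fell in exposures 2 to 4. *hxk-1* (WBGene00008780, chromosome I, 9271479 to 9278689, minus strand) was at 321, 356 and 310.4 CPM in hypoxia against 370.1, 347 and 335 CPM in normoxia in exposure 1, and at 248, 262 and 255 CPM in hypoxia against 351, 366 and 331 CPM in normoxia in exposure 2. In the next generations it was at 368, 400.3 and 363 CPM in hypoxia against 348, 352 and 334 CPM in normoxia in exposure 3, and at 344, 331 and 334 CPM in hypoxia against 369, 382 and 369 CPM in normoxia in exposure 4. Its groups were separate with hypoxia below normoxia in exposures 2 and 4 and above it in exposure 3. *hxk-1* had log2 fold changes of −0.08 ± 0.10, −0.35 ± 0.06, 0.13 ± 0.07 and −0.19 ± 0.05 in exposures 1, 2, 3 and 4 (adjusted p = 0.627, 0.000353, 0.202 and 0.012). The exposure 4 call was lost in 2 of 6 fits with 1 library left out (adjusted p up to 0.0674, without hypoxia replicate 3) and in the joint fit (adjusted p = 0.057). *hxk-3*, the last of the family listed, was called lower in exposure 2 alone, at 87 ± 0.61 CPM in hypoxia and 109.8 ± 3.09 CPM in normoxia.

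Phosphofructokinase, the committing step of glycolysis, has 2 genes here with very different levels. *pfk-1.1* (WBGene00022199, chromosome X, 2940872 to 2945485, plus strand) was at 117, 129 and 113 CPM in hypoxia against 102, 103 and 102 CPM in normoxia in exposure 1, and at 163, 148 and 139 CPM in hypoxia against 85.6, 89.5 and 90 CPM in normoxia in exposure 2. It was then at 99.3, 99.8 and 98.1 CPM in hypoxia against 87.4, 97 and 92.8 CPM in normoxia in exposure 3, and at 101, 103 and 109 CPM in hypoxia against 89.3, 83.3 and 84.9 CPM in normoxia in exposure 4. Hypoxia lay above normoxia without overlap in all 4 exposures, with the widest gap in exposure 2. *pfk-1.1* had log2 fold changes of 0.24 ± 0.08, 0.87 ± 0.07, 0.10 ± 0.07 and 0.24 ± 0.05 in exposures 1, 2, 3 and 4 (adjusted p = 0.0794, 9.87e-07, 0.303 and 0.00453), so that it rose in exposures 2 and 4.

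*pfk-1.2* (WBGene00008230, chromosome V, 9531801 to 9534537, plus strand) had the lowest level per length of the 30 genes, a median over the 8 groups of 3.68 RPKM (CPM per kilobase of exon) against 28.3 RPKM for *pfk-1.1*. It was at 13.3, 14.5 and 12.8 CPM in hypoxia against 3.85, 3.01 and 3.85 CPM in normoxia in exposure 1, and at 17.6, 17.1 and 19.6 CPM in hypoxia against 4.97, 3.42 and 3.28 CPM in normoxia in exposure 2. Its values were 11.7, 10 and 8.75 CPM in hypoxia against 8.03, 8.76 and 6.55 CPM in normoxia in exposure 3, and 10.6, 9.97 and 9.42 CPM in hypoxia against 3.09, 2.49 and 2.61 CPM in normoxia in exposure 4. The groups were far apart in exposures 1, 2 and 4 and overlapped in exposure 3, whose normoxia libraries were higher than those of the other exposures. *pfk-1.2* had log2 fold changes of 1.94 ± 0.17, 2.33 ± 0.16, 0.38 ± 0.17 and 1.83 ± 0.13 in exposures 1, 2, 3 and 4 (adjusted p = 0.000708, 6.13e-07, 0.129 and 2.67e-05).

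The 10 major sperm protein genes followed as sperm markers moved in the same exposures as *pfk-1.2*. Of these 10, 10, 10, 0 and 9 were called higher in exposures 1 to 4, with medians of 0.93, 0.96, −0.14 and 0.53 on the log2 scale. Among all genes tested, 13.3, 37.2, 12.4 and 27.1% were called higher. Their summed level was 552 to 699 CPM in hypoxia and 302 to 342 CPM in normoxia in exposure 1, and 535 to 632 CPM in hypoxia and 279.9 to 391 CPM in normoxia in exposure 2. In exposure 3 it was 507 to 805 CPM in hypoxia and 638 to 707 CPM in normoxia, and in exposure 4 it was 307 to 352 CPM in hypoxia and 195 to 242.5 CPM in normoxia. As with *pfk-1.2*, normoxia was highest in exposure 3. The sperm markers' part in the change of *pfk-1.2* was not tested.

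**Figure D2:**
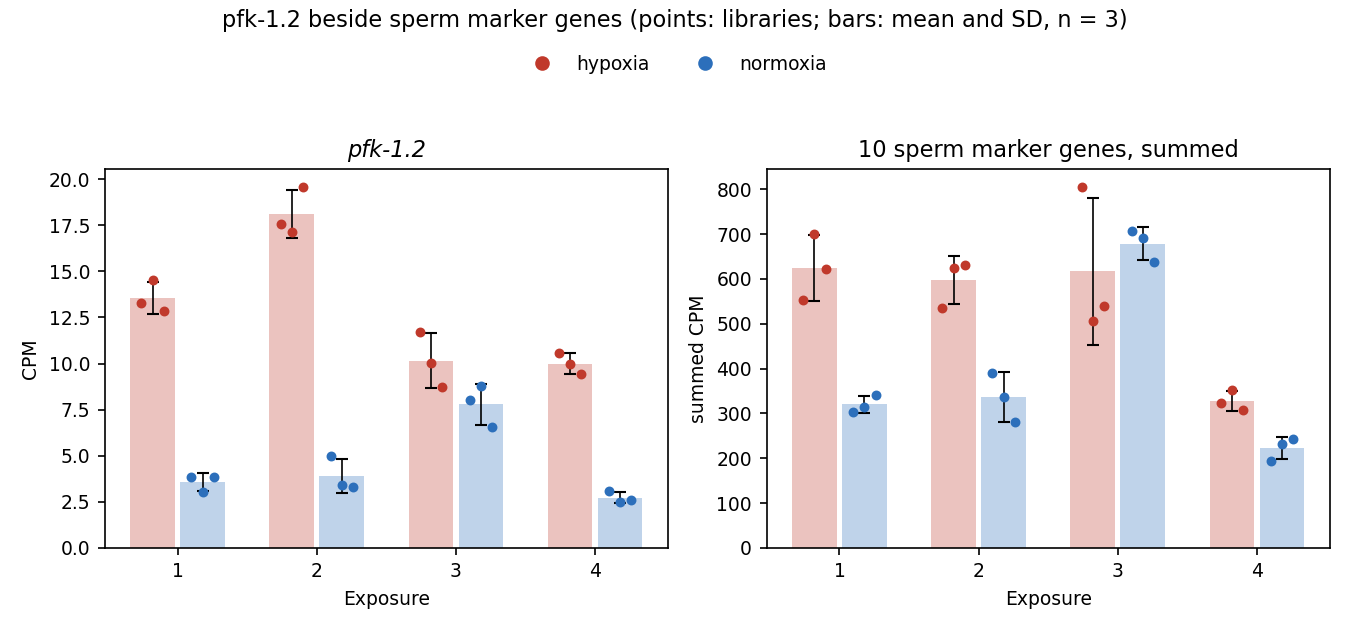
The plot of *pfk-1.2* beside the sperm markers shows CPM of *pfk-1.2* on the left and the summed CPM of 10 major sperm protein genes on the right by exposure, with points for libraries and bars for the mean and SD (n = 3). *pfk-1.2* averaged 13.5, 18.1, 10.2 and 9.99 CPM in hypoxia and 3.57, 3.89, 7.78 and 2.73 CPM in normoxia. In both panels exposure 3 has the highest of the normoxia groups, which for *pfk-1.2* is still below every hypoxia group.

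Aldolase splits fructose-1,6-bisphosphate, and its genes *aldo-1* and *aldo-2* were called higher in 4 and 3 exposures. *aldo-1* (WBGene00011474, chromosome III, 13563346 to 13564937, minus strand) was at 214, 208 and 244 CPM in hypoxia against 126, 133 and 114 CPM in normoxia in exposure 1, and at 344, 315 and 297 CPM in hypoxia against 91.3, 101 and 111 CPM in normoxia in exposure 2. Its libraries held 190.1, 168 and 222 CPM in hypoxia against 126, 161 and 141 CPM in normoxia in exposure 3, and 201, 222 and 239 CPM in hypoxia against 129.8, 130.3 and 132 CPM in normoxia in exposure 4. Hypoxia was above normoxia in every exposure, by the most in exposure 2 and by the least in exposure 3. *aldo-1* had log2 fold changes of 0.86 ± 0.11, 1.76 ± 0.08, 0.44 ± 0.12 and 0.71 ± 0.06 in exposures 1, 2, 3 and 4 (adjusted p = 0.00255, 3.17e-08, 0.0308 and 6.25e-05). The call of exposure 3 was lost in 4 of 6 fits that left out 1 library, with adjusted p up to 0.117 (without normoxia replicate 1), and under upper-quartile normalization (adjusted p = 0.0647).

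*aldo-2* (WBGene00017166, chromosome III, 5874673 to 5876625, minus strand), the most abundant of the 30 genes per length with a median of 1010.3 RPKM, was at 1623, 989 and 1649 CPM in hypoxia against 751, 856 and 829 CPM in normoxia in exposure 1, and at 1548, 1419.9 and 1474 CPM in hypoxia against 1273, 1561 and 1415 CPM in normoxia in exposure 2. It was next at 1361, 1222 and 1405 CPM in hypoxia against 819, 784 and 850.2 CPM in normoxia in exposure 3, and at 1418, 1569 and 1517 CPM in hypoxia against 781, 792 and 763 CPM in normoxia in exposure 4. The groups overlapped in exposure 2 and in no other, and there the normoxia libraries were within the range of the hypoxia libraries of the 4 exposures. *aldo-2* had log2 fold changes of 0.83 ± 0.22, 0.17 ± 0.08, 0.70 ± 0.09 and 0.91 ± 0.07 in exposures 1, 2, 3 and 4 (adjusted p = 0.0405, 0.0882, 0.000885 and 3.99e-05). In exposure 1 hypoxia replicate 2 was nearest to normoxia, and the call was lost in 5 of the 6 fits with 1 library left out (adjusted p up to 0.139, without hypoxia replicate 1), the exception being the fit without that replicate (adjusted p = 0.00148). Of its exons, 34 bases overlap *F01F1.3* on the opposite strand.

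Of the isomerases, triosephosphate isomerase rose in 3 exposures and glucose-6-phosphate isomerase in 1. *tpi-1* (WBGene00006601, chromosome II, 12036835 to 12039139, minus strand) was at 321, 373 and 334 CPM in hypoxia against 238, 241 and 248 CPM in normoxia in exposure 1, and at 439.5, 379 and 373 CPM in hypoxia against 249, 215 and 239 CPM in normoxia in exposure 2. Its levels were 393, 367 and 387 CPM in hypoxia against 280.0, 303 and 291 CPM in normoxia in exposure 3, and 298, 359 and 372 CPM in hypoxia against 299.6, 265 and 294 CPM in normoxia in exposure 4. Hypoxia replicate 1 of exposure 4 fell among the normoxia libraries, which left that exposure as the only overlap. *tpi-1* had log2 fold changes of 0.52 ± 0.09, 0.87 ± 0.08, 0.39 ± 0.07 and 0.22 ± 0.09 in exposures 1, 2, 3 and 4 (adjusted p = 0.00863, 4.36e-06, 0.00393 and 0.0587), and DESeq2 called exposure 4 as well (adjusted p = 0.0399). The call of exposure 1 was lost in 1 of 6 fits with 1 library left out (adjusted p = 0.0541, without normoxia replicate 2). The isomerase *gpi-1* was called higher in exposure 2, at 259.8 ± 4.98 CPM in hypoxia and 205 ± 13.6 CPM in normoxia (log2 fold change 0.45 ± 0.06, adjusted p = 8.95e-05).

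The 4 genes of glyceraldehyde-3-phosphate dehydrogenase, which makes the NADH of glycolysis, were called in opposite directions in exposures 2 and 4. *gpd-2* (WBGene00001684, chromosome X, 3113443 to 3114689, minus strand) and *gpd-3* (WBGene00001685, chromosome X, 3112091 to 3113341, minus strand) lie side by side in an operon behind *mai-1*, with 22 exonic bases shared by *gpd-2* and *mai-1*, while *gpd-1* (WBGene00001683, chromosome II, 10394129 to 10395349, plus strand) and *gpd-4* (WBGene00001686, chromosome II, 10171268 to 10172498, plus strand) lie apart on another chromosome. Within each pair the copies are nearly identical, so reads of one may have been counted on the other, and each pair is also given as a sum.

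*gpd-2* was at 803, 607 and 889 CPM in hypoxia against 319.8, 372 and 328 CPM in normoxia in exposure 1, and at 1256, 1164 and 1170 CPM in hypoxia against 413, 469.6 and 412 CPM in normoxia in exposure 2. Afterwards it was at 709.8, 590.1 and 780.5 CPM in hypoxia against 389.6, 395 and 409.9 CPM in normoxia in exposure 3, and at 733, 789 and 796 CPM in hypoxia against 391, 335 and 369 CPM in normoxia in exposure 4. *gpd-2* had log2 fold changes of 1.19 ± 0.17, 1.58 ± 0.07, 0.80 ± 0.11 and 1.04 ± 0.07 in exposures 1, 2, 3 and 4 (adjusted p = 0.00347, 4.11e-08, 0.00124 and 2.16e-05). *gpd-3* was at 1204, 779 and 1314 CPM in hypoxia against 398, 497 and 442 CPM in normoxia in exposure 1, and at 1572, 1420.3 and 1429 CPM in hypoxia against 538, 648 and 613 CPM in normoxia in exposure 2. For exposures 3 and 4 it was at 855, 727 and 978 CPM in hypoxia against 471, 483 and 484 CPM in normoxia in exposure 3, and at 980.5, 1094 and 1140.4 CPM in hypoxia against 417, 364 and 398 CPM in normoxia in exposure 4. *gpd-3* had log2 fold changes of 1.32 ± 0.22, 1.40 ± 0.08, 0.83 ± 0.11 and 1.41 ± 0.08 in exposures 1, 2, 3 and 4 (adjusted p = 0.0067, 1.89e-07, 0.00123 and 1.04e-05). For both genes every hypoxia library was above every normoxia library in each exposure, and hypoxia replicate 2 was the lowest hypoxia library in exposures 1, 2 and 3. Summed, the pair had log2 fold changes of 1.27 ± 0.21, 1.48 ± 0.08, 0.82 ± 0.11 and 1.24 ± 0.09 (adjusted p = 0.00626, 9.91e-08, 0.00148 and 2.28e-05).

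*gpd-1* was at 221, 301 and 212 CPM in hypoxia against 330.0, 305 and 277 CPM in normoxia in exposure 1, and at 136, 161 and 145 CPM in hypoxia against 234, 236 and 244 CPM in normoxia in exposure 2. Its counts gave 318, 322 and 273 CPM in hypoxia against 277, 289.9 and 261 CPM in normoxia in exposure 3, and 276, 298 and 282 CPM in hypoxia against 335, 384 and 355 CPM in normoxia in exposure 4. Hypoxia was below normoxia without overlap in exposures 2 and 4, and the groups overlapped in the other 2. *gpd-1* had log2 fold changes of −0.30 ± 0.16, −0.59 ± 0.06, 0.14 ± 0.09 and −0.36 ± 0.06 in exposures 1, 2, 3 and 4 (adjusted p = 0.222, 1.31e-05, 0.251 and 0.00206). *gpd-4* was at 131, 191 and 125 CPM in hypoxia against 215, 185 and 176 CPM in normoxia in exposure 1, and at 91.9, 103 and 93.2 CPM in hypoxia against 134, 131 and 130.4 CPM in normoxia in exposure 2. The later values were 208, 202 and 168 CPM in hypoxia against 173, 185 and 154 CPM in normoxia in exposure 3, and 156, 175 and 162 CPM in hypoxia against 207, 248 and 223 CPM in normoxia in exposure 4. *gpd-4* had log2 fold changes of −0.35 ± 0.18, −0.35 ± 0.06, 0.18 ± 0.10 and −0.50 ± 0.08 in exposures 1, 2, 3 and 4 (adjusted p = 0.208, 0.000223, 0.244 and 0.00101), so that it fell in the same exposures as *gpd-1*. In exposure 1 hypoxia replicate 2 was the highest hypoxia library for both genes, and without it both were called lower (log2 fold changes of −0.45 for *gpd-1* and −0.55 for *gpd-4*, adjusted p = 0.0237 and 0.0159). The sum of *gpd-1* and *gpd-4* had log2 fold changes of −0.32 ± 0.17, −0.50 ± 0.06, 0.16 ± 0.10 and −0.42 ± 0.07 (adjusted p = 0.225, 3.71e-05, 0.255 and 0.00207).

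The 12 oocyte and eggshell markers, which stand for the germ line and its eggs, had 2, 12, 2 and 10 members called lower in exposures 1 to 4 and 0 called higher in each, with median log2 fold changes of −0.36, −0.73, 0.15 and −0.28. In exposure 2 they summed to 3593 to 4663 CPM in hypoxia and 7262 to 7908 CPM in normoxia. Beside these counts, 7.40, 36.3, 17.7 and 23.0% of all genes were called lower in exposures 1 to 4 and 13.3, 37.2, 12.4 and 27.1% higher. The 8 body wall muscle markers had 0, 8, 0 and 0 members called higher in exposures 1 to 4 and 0, 0, 4 and 4 called lower, beside the same shares of all genes. Their median log2 fold changes were −0.14, 0.92, −0.13 and −0.24. They had a sum of 13525 to 13813 CPM in hypoxia and 6883 to 8067 CPM in normoxia in exposure 2. The part of these tissues in the changes of the *gpd* genes was not tested.

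**Figure D3:**
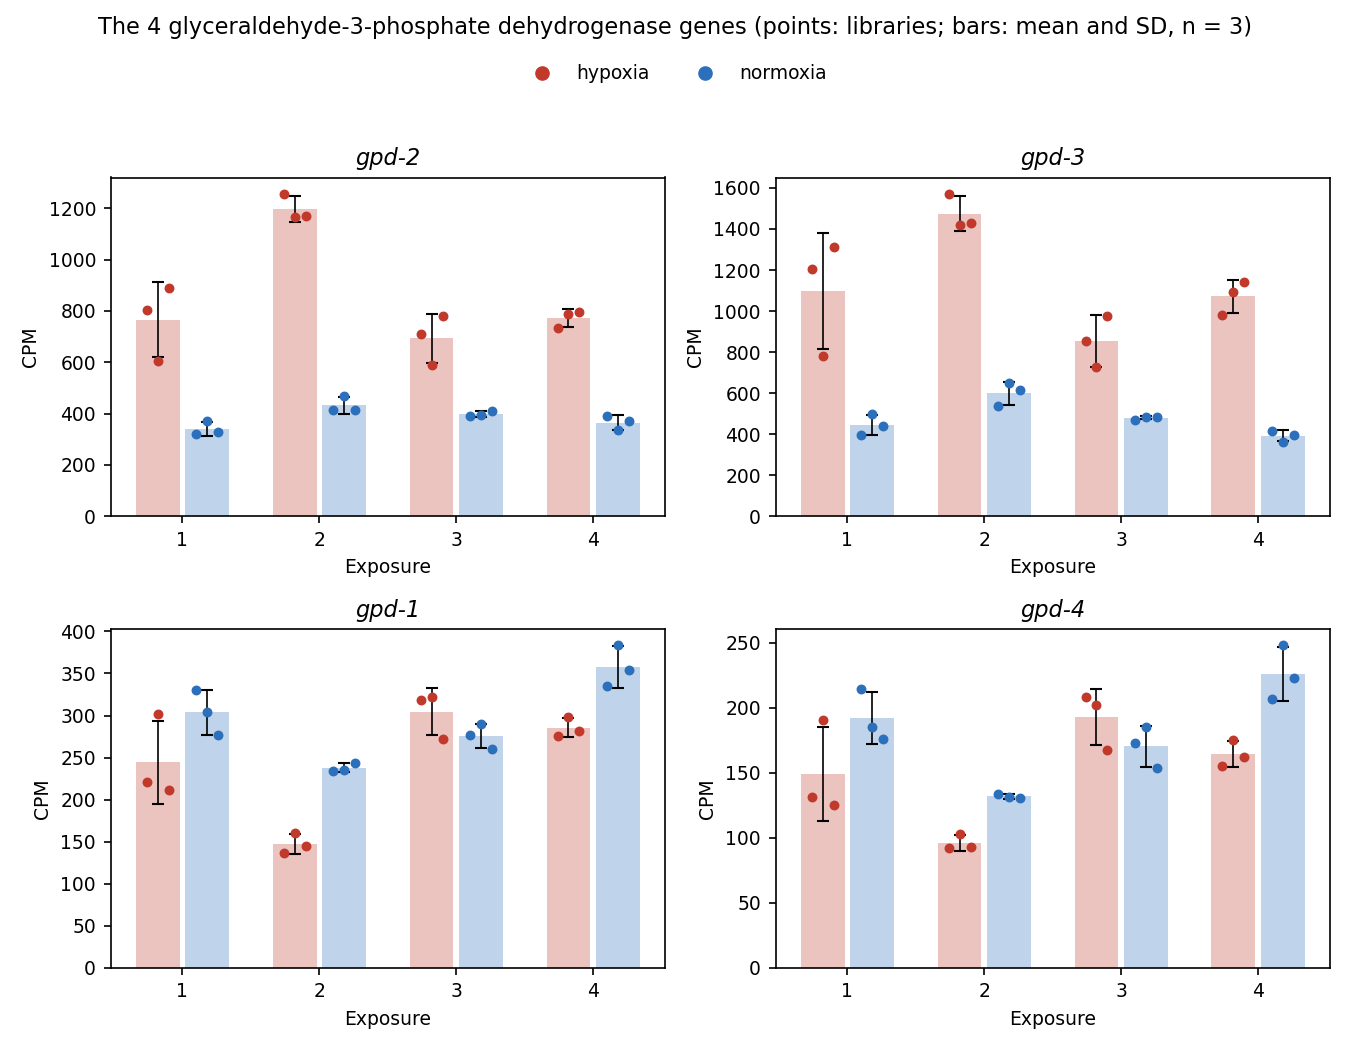
The plot of the glyceraldehyde-3-phosphate dehydrogenase genes shows CPM by exposure, hypoxia left of normoxia, with points for libraries and bars for the mean and SD (n = 3). Every hypoxia point of *gpd-2* and *gpd-3* is above the normoxia points of its exposure, and in exposures 2 and 4 every hypoxia point of *gpd-1* and *gpd-4* is below them.

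Below this step the mutase and the enolase rose in every generation. *ipgm-1* (WBGene00019001, chromosome I, 6569557 to 6572600, plus strand), the cofactor-independent phosphoglycerate mutase, a kind of enzyme that vertebrates lack, was at 296, 292 and 305 CPM in hypoxia against 184, 202 and 188 CPM in normoxia in exposure 1, and at 396, 379 and 365 CPM in hypoxia against 191, 195 and 194 CPM in normoxia in exposure 2. It measured 294, 288 and 299.6 CPM in hypoxia against 179.5, 203 and 195 CPM in normoxia in exposure 3, and 288, 295 and 303 CPM in hypoxia against 190.3, 185 and 182 CPM in normoxia in exposure 4. The spread between replicates was small and the groups were well apart. *ipgm-1* had log2 fold changes of 0.66 ± 0.09, 1.08 ± 0.05, 0.61 ± 0.07 and 0.63 ± 0.04 in exposures 1, 2, 3 and 4 (adjusted p = 0.00251, 6.24e-08, 0.000688 and 2.59e-05), and kept its call in every fit that left out 1 library. *enol-1* (WBGene00011884, chromosome II, 8930997 to 8933799, plus strand), which makes phosphoenolpyruvate, was at 816, 889 and 891 CPM in hypoxia against 661, 601 and 548 CPM in normoxia in exposure 1, and at 1202, 1198 and 1149.8 CPM in hypoxia against 504, 537 and 491 CPM in normoxia in exposure 2. Exposures 3 and 4 had 953, 886 and 999 CPM in hypoxia against 621, 691 and 595 CPM in normoxia in exposure 3, and 879.6, 918 and 923 CPM in hypoxia against 633, 701 and 694 CPM in normoxia in exposure 4. Here too the groups never overlapped, and hypoxia was highest and normoxia lowest in exposure 2. *enol-1* had log2 fold changes of 0.54 ± 0.13, 1.32 ± 0.06, 0.57 ± 0.09 and 0.38 ± 0.07 in exposures 1, 2, 3 and 4 (adjusted p = 0.0257, 4.79e-08, 0.00247 and 0.00198). Its exposure 1 call was lost in 4 of 6 fits with 1 library left out (adjusted p up to 0.111, without normoxia replicate 2). *pgk-1*, phosphoglycerate kinase, was called higher in exposure 2 alone, at 196 ± 2.32 CPM in hypoxia and 135 ± 3.77 CPM in normoxia (log2 fold change 0.65 ± 0.05, adjusted p = 1.08e-06).

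Pyruvate kinase, which closes glycolysis, has 2 genes. Both were called higher in exposure 2, and they were called in opposite directions in exposure 4. The difference between the 2 genes was not tested. *pyk-1* (WBGene00009126, chromosome I, 9168432 to 9177488, plus strand) was at 327, 485 and 319 CPM in hypoxia against 506, 405 and 382 CPM in normoxia in exposure 1, and at 404, 452 and 417 CPM in hypoxia against 311, 329.8 and 327 CPM in normoxia in exposure 2. Later libraries held 491, 502 and 471 CPM in hypoxia against 420.4, 493 and 409 CPM in normoxia in exposure 3, and 405, 394 and 400.4 CPM in hypoxia against 427, 516 and 471 CPM in normoxia in exposure 4. The groups were separate in exposure 2 with hypoxia above, and in exposure 4 with hypoxia below. *pyk-1* had log2 fold changes of −0.18 ± 0.20, 0.50 ± 0.06, 0.15 ± 0.09 and −0.28 ± 0.07 in exposures 1, 2, 3 and 4 (adjusted p = 0.552, 3.06e-05, 0.253 and 0.0143). The fall in exposure 4 lost its call in 2 of 6 fits with 1 library left out (adjusted p up to 0.0649, without hypoxia replicate 2) and in the joint fit (adjusted p = 0.151). *pyk-2* was called higher in exposures 2 and 4, with log2 fold changes of 0.59 ± 0.06 and 0.76 ± 0.05 (adjusted p = 8.65e-06 and 2.07e-05). In exposure 4 *pyk-2* averaged 79.2 ± 1.52 CPM in hypoxia and 45.4 ± 1.65 CPM in normoxia, and 204 of its exonic bases overlap an antisense RNA, *ZK593.11*, whose reads could not be separated since the strand setting of the counting is not stated.

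Lactate dehydrogenase rose in exposures 1, 2 and 4, and alcohol dehydrogenase fell in exposures 2 and 3. *ldh-1* (WBGene00002262, chromosome II, 11724204 to 11726533, plus strand) was at 81.7, 80.8 and 89 CPM in hypoxia against 70.2, 59.1 and 53.7 CPM in normoxia in exposure 1, and at 120.3, 107 and 102 CPM in hypoxia against 50.3, 52.2 and 50.4 CPM in normoxia in exposure 2. It stood at 63.3, 56.8 and 82 CPM in hypoxia against 48.1, 61.7 and 53.4 CPM in normoxia in exposure 3, and at 71.5, 79.9 and 89.9 CPM in hypoxia against 59.2, 61.4 and 61.2 CPM in normoxia in exposure 4. Hypoxia replicate 2 of exposure 3 was inside the normoxia range, and the other exposures did not overlap. *ldh-1* had log2 fold changes of 0.48 ± 0.13, 1.22 ± 0.07, 0.31 ± 0.15 and 0.37 ± 0.08 in exposures 1, 2, 3 and 4 (adjusted p = 0.0425, 1.36e-07, 0.152 and 0.00518). The call of exposure 1 was lost in 4 of 6 fits with 1 library left out (adjusted p up to 0.154, without normoxia replicate 2).

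*sodh-1* (WBGene00010790, chromosome V, 11888248 to 11889650, plus strand), an alcohol dehydrogenase, is given in full although it was singled out after its values were seen. It was at 498, 368 and 617 CPM in hypoxia against 188, 1927 and 2434 CPM in normoxia in exposure 1, and at 629.7, 498 and 564 CPM in hypoxia against 3927, 3948 and 3287 CPM in normoxia in exposure 2. Its other libraries held 502, 338 and 329 CPM in hypoxia against 1662, 455 and 2680.1 CPM in normoxia in exposure 3, and 267, 265 and 307 CPM in hypoxia against 939, 214 and 356 CPM in normoxia in exposure 4. The groups were separate in exposure 2 alone, since the normoxia libraries differed widely among themselves in exposures 1, 3 and 4. *sodh-1* had log2 fold changes of −1.58 ± 0.79, −2.62 ± 0.11, −2.04 ± 0.54 and −0.89 ± 0.45 in exposures 1, 2, 3 and 4 (adjusted p = 0.202, 1.93e-08, 0.0236 and 0.134). The call of exposure 3 was lost in 4 of 6 fits with 1 library left out (adjusted p up to 0.104, without hypoxia replicate 2), and the call of exposure 2 was kept in all. On the opposite strand *sodh-2*, another alcohol dehydrogenase, overlaps 70 of its exonic bases and had a log2 fold change of −2.14 ± 0.17 in exposure 2 (adjusted p = 1.31e-06).

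Among the enzymes of gluconeogenesis, PEP carboxykinase gave the largest changes. *pck-1* (WBGene00021043, chromosome III, 62888 to 66260, minus strand) was at 1094, 716 and 1188 CPM in hypoxia against 234, 398 and 366 CPM in normoxia in exposure 1, and at 1664, 1397 and 1416 CPM in hypoxia against 273, 286 and 306 CPM in normoxia in exposure 2. In the last generations it was at 563, 532 and 700.1 CPM in hypoxia against 241, 241 and 276 CPM in normoxia in exposure 3, and at 885, 933 and 1091 CPM in hypoxia against 289, 196 and 210.2 CPM in normoxia in exposure 4. The lowest hypoxia library of each exposure was well above the highest normoxia library. *pck-1* had log2 fold changes of 1.61 ± 0.27, 2.48 ± 0.09, 1.24 ± 0.12 and 2.03 ± 0.15 in exposures 1, 2, 3 and 4 (adjusted p = 0.0066, 6.01e-09, 0.000279 and 3.08e-05), the largest rise of the 30 genes in exposures 2, 3 and 4, and in exposure 1 only *pfk-1.2* had a larger one.

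*pck-2* (WBGene00011232, chromosome I, 7866136 to 7872100, plus strand) was at 2181, 1130.5 and 2162 CPM in hypoxia against 631, 1031 and 1293 CPM in normoxia in exposure 1, and at 2038, 1845 and 1838 CPM in hypoxia against 2406, 2850.4 and 2584 CPM in normoxia in exposure 2. Its exons share 9 bases with *suro-1* on the opposite strand. Further values were 1213, 1068 and 1241 CPM in hypoxia against 822, 659 and 1069 CPM in normoxia in exposure 3, and 1589, 1796 and 1728 CPM in hypoxia against 714, 606 and 645 CPM in normoxia in exposure 4. Normoxia in exposure 2 was above every other group of this gene, and the hypoxia libraries of that exposure were within the range of the other hypoxia groups. *pck-2* had log2 fold changes of 0.92 ± 0.35, −0.35 ± 0.08, 0.47 ± 0.17 and 1.34 ± 0.09 in exposures 1, 2, 3 and 4 (adjusted p = 0.109, 0.00274, 0.0684 and 1.88e-05). It was thus called lower in exposure 2 and higher in exposure 4. In one fit of all libraries the exposure 2 fall was not called (adjusted p = 0.0832), and without hypoxia replicate 2 the gene was called higher in exposure 1 (log2 fold change of 1.18, adjusted p = 0.0215). The third carboxykinase gene, *pck-3*, which is outside the 30 genes, was called higher in all 4 exposures (log2 fold changes of 2.11, 1.90, 0.62 and 1.68).

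**Figure D4:**
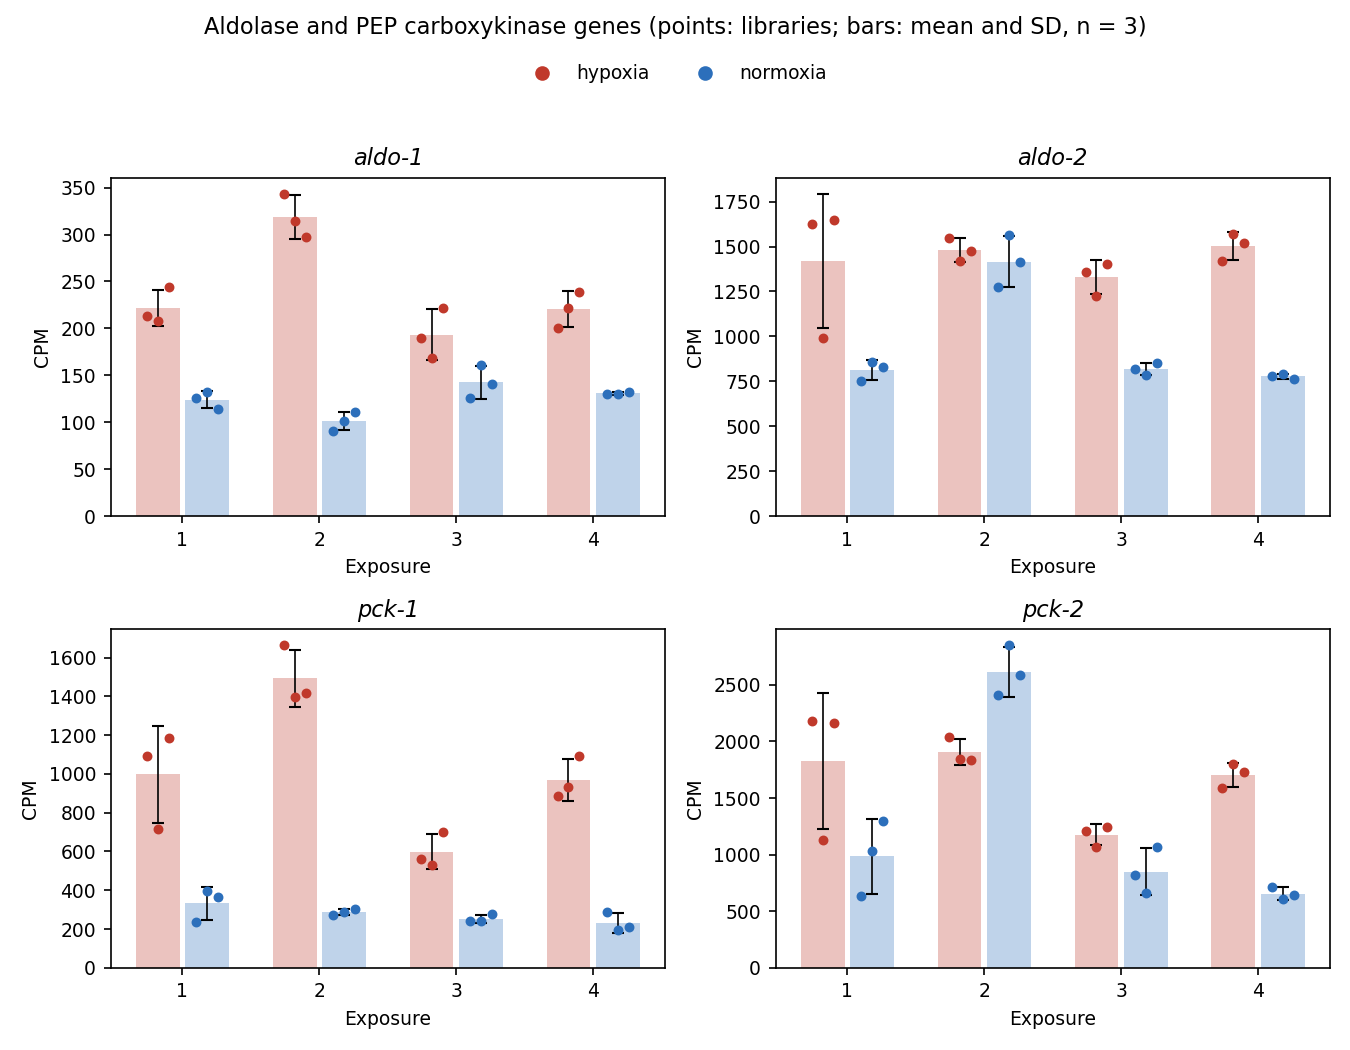
The plot of aldolases and PEP carboxykinases shows CPM by exposure, hypoxia left of normoxia, with points for libraries and bars for the mean and SD (n = 3). *aldo-1* and *pck-1* are higher in hypoxia in each exposure, while in exposure 2 the normoxia groups of *aldo-2* (1416 ± 144.0 CPM) and *pck-2* (2614 ± 223.5 CPM) are far above those of the other exposures.

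Fructose-1,6-bisphosphatase and pyruvate carboxylase rose in exposures 2 and 4. *fbp-1* had log2 fold changes of 0.26 ± 0.11, 0.61 ± 0.05, 0.09 ± 0.06 and 0.40 ± 0.05 in exposures 1, 2, 3 and 4 (adjusted p = 0.146, 3.34e-06, 0.297 and 0.000389), and its hypoxia libraries were above its normoxia libraries in all 4 exposures. *pyc-1*, which feeds oxaloacetate to PEP carboxykinase, had log2 fold changes of 0.69 ± 0.24, 0.54 ± 0.08, 0.17 ± 0.18 and 0.69 ± 0.20 in exposures 1, 2, 3 and 4 (adjusted p = 0.0873, 0.00015, 0.512 and 0.0187). The exposure 4 call of *pyc-1* was lost in 4 of 6 fits with 1 library left out (adjusted p up to 0.0748, without normoxia replicate 3).

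*icl-1* (WBGene00001564, chromosome V, 724332 to 728004, minus strand), the bifunctional enzyme of the glyoxylate shunt, was singled out after its values were seen. It was at 4019, 2022 and 3839 CPM in hypoxia against 357, 2903 and 3659.8 CPM in normoxia in exposure 1, and at 5239, 4839 and 4903 CPM in hypoxia against 4907, 5798 and 5212 CPM in normoxia in exposure 2. The remaining libraries held 3212, 2685 and 2974 CPM in hypoxia against 2411, 421 and 3345 CPM in normoxia in exposure 3, and 2429, 2438 and 2593 CPM in hypoxia against 1556, 257 and 372 CPM in normoxia in exposure 4. Hypoxia and normoxia overlapped in exposures 1 to 3, and in exposures 1 and 3 a single normoxia library was several times lower than the others of its group. *icl-1* had log2 fold changes of 0.55 ± 0.74, 0.02 ± 0.08, 0.52 ± 0.58 and 1.73 ± 0.59 in exposures 1, 2, 3 and 4 (adjusted p = 0.629, 0.854, 0.536 and 0.0384), and the call of exposure 4 was lost in 5 of 6 fits with 1 library left out (adjusted p up to 0.122, without normoxia replicate 3).

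In exposures 1, 3 and 4 several enzymes shared the same lowest normoxia library, a pattern noticed after the values were seen. In exposure 4 the library that stood apart was replicate 1, a high one. It had 1556 CPM of *icl-1* against 257 and 372 CPM in replicates 2 and 3, and 939 CPM of *sodh-1* against 214 and 356 CPM. Normoxia replicate 1 of exposure 1, replicate 2 of exposure 3 and replicate 2 of exposure 4 each had the lowest *icl-1* of their normoxia group. They also had the lowest *sodh-1*, *pyc-1* and *hxk-3*. *pck-1*, *pck-2*, *pdha-1* and *pdhk-2* were lowest in these 3 libraries as well, *pck-1* barely so in exposure 3 (240.6 against 241.4 CPM). Other members went the other way. *hxk-1*, *gpd-1*, *gpd-4*, *pgk-1*, *enol-1*, *pyk-1*, *ldh-1*, *pdhb-1* and *dlat-1* were each the highest of their normoxia group in the same 3 libraries. The share of all genes that were lowest or highest in these 3 libraries was not computed. Whether the pattern is particular to these enzymes is therefore not known. For *pyc-1* the normoxia libraries held 402, 675 and 676 CPM in exposure 1, 631, 391 and 669 CPM in exposure 3 and 572, 321 and 342 CPM in exposure 4. For *hxk-3* they held 62.8, 90.2 and 92.5 CPM, 92.6, 66.7 and 98.8 CPM and 78, 56.5 and 65.1 CPM in the same exposures. The summed level of 8 intestine markers was lowest in the same 3 libraries, at 5258, 6978 and 5679 CPM in exposure 1, 6856, 5557 and 7203 CPM in exposure 3 and 4552, 3287 and 3965 CPM in exposure 4. The sum of 8 neuron markers was also the lowest of its normoxia group in these 3 libraries, at 430, 447 and 483 CPM. Lowest there too was the sum of the 6 HIF-1 target genes described below, at 145, 121.8 and 137 CPM. The same held for the 14 genes around pyruvate described below, at 1968, 1983 and 1845.5 CPM. The 12 oocyte and eggshell genes had their highest normoxia sums there, at 10075, 9027 and 10513 CPM. So did 6 pentose phosphate genes, at 1142.6, 1124.5 and 1167.3 CPM. The part of these markers and genes in this spread was not tested. Ribosomal RNA took 0.671, 1.15 and 1.88% of the counts of these 3 libraries, within the range of the other libraries.

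**Figure D5:**
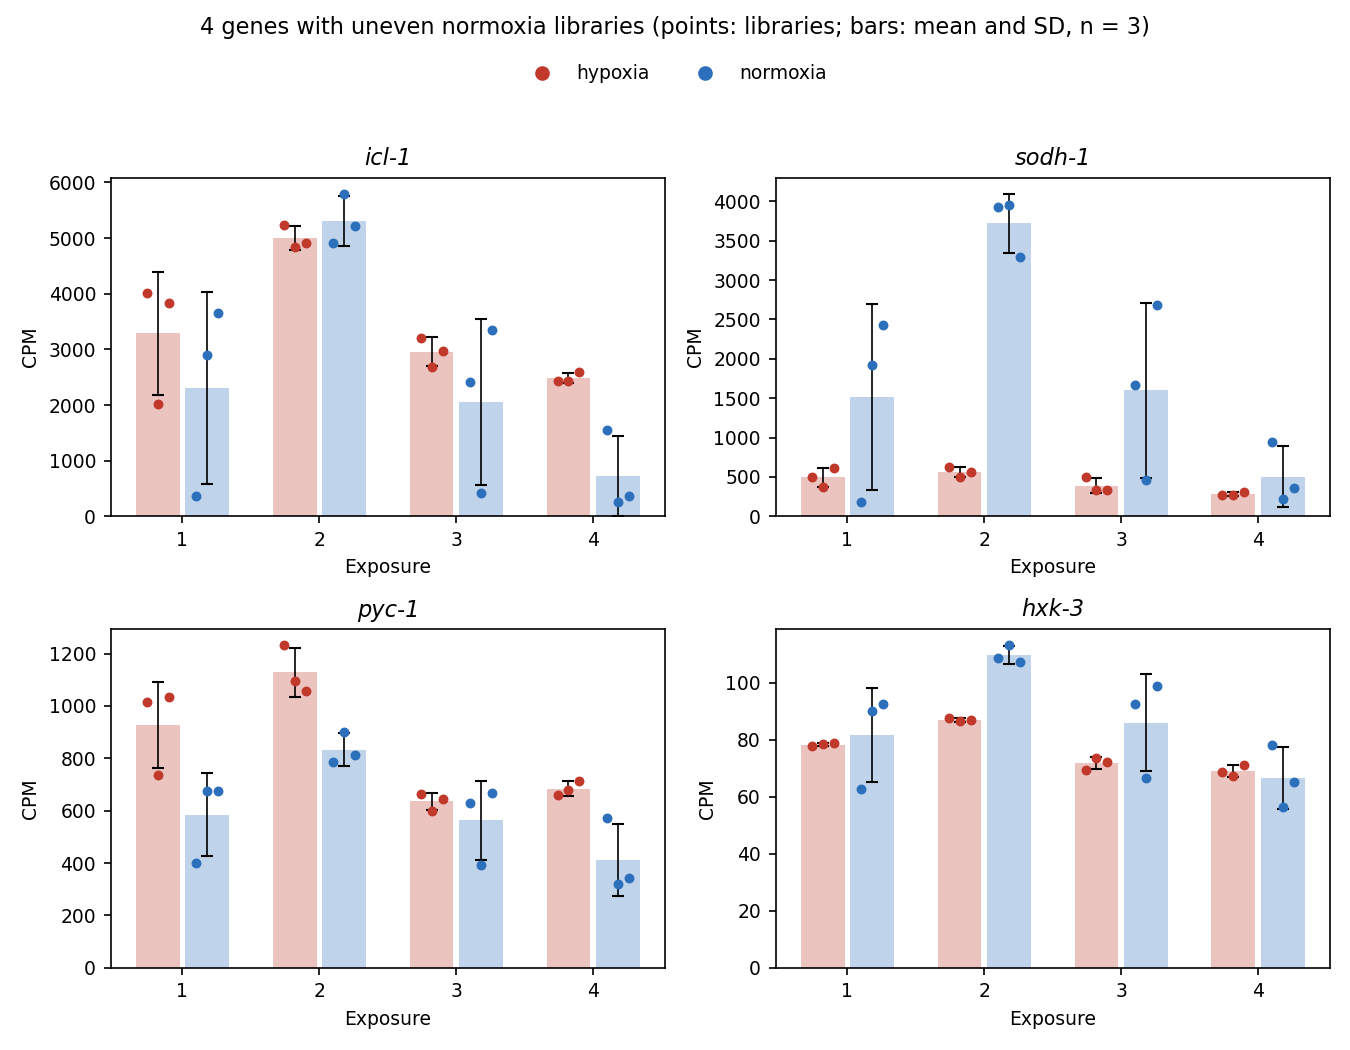
The plot of 4 of the genes with uneven normoxia libraries shows CPM by exposure, hypoxia left of normoxia, with points for libraries and bars for the mean and SD (n = 3). The normoxia points of *icl-1* run from 357 to 3660 CPM in exposure 1 and from 421 to 3345 CPM in exposure 3, and the exposure 2 groups are tight.

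Of the 5 genes of pyruvate dehydrogenase and its partners, 0, 4, 1 and 2 were called higher in exposures 1 to 4. Among all genes tested, 13.3, 37.2, 12.4 and 27.1% were. The median log2 fold changes of the 5 genes were 0.20, 0.37, 0.12 and 0.03. *dld-1* (WBGene00010794, chromosome IV, 14464517 to 14469136, plus strand), the dihydrolipoamide dehydrogenase that other mitochondrial dehydrogenase complexes share, was at 271, 289 and 285 CPM in hypoxia against 256, 231 and 230.3 CPM in normoxia in exposure 1, and at 359, 360.4 and 364 CPM in hypoxia against 255, 285 and 267 CPM in normoxia in exposure 2. It was then measured at 309, 284 and 293 CPM in hypoxia against 249.9, 252 and 247 CPM in normoxia in exposure 3, and at 307, 299.6 and 297 CPM in hypoxia against 234.6, 247 and 247 CPM in normoxia in exposure 4. No exposure had overlapping groups, and the gap was widest in exposure 2. *dld-1* had log2 fold changes of 0.25 ± 0.10, 0.53 ± 0.06, 0.24 ± 0.06 and 0.27 ± 0.05 in exposures 1, 2, 3 and 4 (adjusted p = 0.109, 1.54e-05, 0.0247 and 0.00197). Its exposure 3 call was lost in 4 of 6 fits with 1 library left out (adjusted p up to 0.1102, without hypoxia replicate 1) and under upper-quartile normalization (adjusted p = 0.0698). The subunits *pdha-1*, *pdhb-1* and *dlat-1* were all called higher in exposure 2, with log2 fold changes of 0.24, 0.37 and 0.37, and *pdha-1* again in exposure 4 (0.20). The *pdha-1* call of exposure 2 was lost in the joint fit (adjusted p = 0.0643), and 209 of its exonic bases overlap *gpcp-2* on the opposite strand. *pdhk-2* had log2 fold changes between −0.04 and 0.12 in the 4 exposures.

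Normalization bears on exposure 2 in particular. There the median log2 fold change of all genes was 0.105 lower in the joint fit than in the separate fit, while the shift was at most 0.04 in size in the other exposures. Because CPM follow the common scaling, the CPM of *pdha-1* overlapped in exposure 2 although the separate fit called it higher. Across the alternatives run, none turned the direction of a called member.

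Whether the response differed between generations was tested as contrasts of the joint fit, for 12517 genes with enough counts in each exposure. The 30 genes differed among the 4 exposures about as often as other genes. A difference in effect among the 4 exposures was called for 20 (66.7%, all genes 68.2%), with the smallest adjusted p for *pfk-1.2* (6.57e-06), *aldo-1* (1.53e-05), *pfk-1.1* (1.96e-05), *enol-1* (2.46e-05) and *hxk-1* (0.000125). With exposure 2 left out, an alternative added after seeing the data, 2 of 30 were called (*pfk-1.2* and *pyk-2*) where 24.9% of all genes were, and with exposure 3 left out 16 were (all genes 39.9%).

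Where exposures 2 and 1 differed, most genes had the higher fold change in exposure 2. Between exposures 2 and 1, 14 of the 30 genes differed (46.7%, all genes 34.8%), 11 with a higher log2 fold change in exposure 2 and 3 with a lower one. *aldo-1* differed by 0.82 ± 0.15 (adjusted p = 0.000468), *pck-1* by 0.78 ± 0.27 (adjusted p = 0.0304), *enol-1* by 0.69 ± 0.11 (adjusted p = 0.00013) and *ldh-1* by 0.65 ± 0.17 (adjusted p = 0.0065). The 3 lower ones were *pck-2*, which differed by −1.34 ± 0.32 (adjusted p = 0.00357), *aldo-2* by −0.74 ± 0.19 (adjusted p = 0.00496) and *hxk-1* by −0.36 ± 0.09 (adjusted p = 0.00327).

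From exposure 2 to exposure 3 the differences had the opposite sign for most. Here 18 genes were called (60%, all genes 57.1%), 13 with a lower log2 fold change in exposure 3 and 5 with a higher one. *pfk-1.2* differed by −1.84 ± 0.22 (adjusted p = 2.12e-06), *aldo-1* by −1.22 ± 0.15 (adjusted p = 2.82e-06) and *pck-1* by −1.13 ± 0.27 (adjusted p = 0.00157). The 5 with a higher fold change in exposure 3 were *hxk-1*, *aldo-2*, *gpd-1*, *gpd-4* and *pck-2*. Both contrasts use the libraries of exposure 2, so they share samples and their signs are not independent.

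Between exposures 4 and 1 the responses could not be told apart for any of the 30 genes. edgeR called 0 (all genes 4.06%), DESeq2 and limma also called 0, and 1 member had an unadjusted p under 0.05. The largest difference among the genes called higher in all 4 exposures was that of *pck-1*, 0.48 ± 0.27 (adjusted p = 0.37), and the smallest that of *ipgm-1*, 0.03 ± 0.07 (adjusted p = 0.906). For *gpd-2* the difference was −0.09 ± 0.16, for *enol-1* −0.10 ± 0.11 and for *aldo-1* −0.08 ± 0.15.

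Normoxia groups differed between generations too. Of the 30 genes, 20 differed in normoxia level among the 4 exposures (66.7%, all genes 54%), and 4 when exposure 2 was left out (*pfk-1.1*, *pfk-1.2*, *tpi-1* and *pyk-2*, all genes 21.8%). The smallest adjusted p belonged to *pfk-1.2* (1.31e-06), *pck-2* (1.96e-06) and *aldo-2* (2.85e-05). The number of exposures and the culture of each generation cannot be told apart in this design.

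The neighbouring pathways gave the following counts. Of all genes tested, 13.3, 37.2, 12.4 and 27.1% were called higher in exposures 1 to 4, and 7.40, 36.3, 17.7 and 23.0% lower. Of 18 tricarboxylic acid cycle genes, 5, 14, 6 and 10 were called higher in exposures 1 to 4 and 0, 1, 1 and 3 lower, with median log2 fold changes of 0.20, 0.38, 0.04 and 0.23. Among them *mev-1*, a subunit of succinate dehydrogenase, *fum-1*, fumarase, and *ogdh-1*, a 2-oxoglutarate dehydrogenase subunit, were called higher in all 4 exposures, *mev-1* with log2 fold changes of 0.38, 0.80, 0.25 and 0.40, *fum-1* with 0.41, 0.76, 0.25 and 0.35 and *ogdh-1* with 0.39, 0.46, 0.36 and 0.41. *sdha-1*, another subunit of succinate dehydrogenase, was called higher in exposures 1, 2 and 4 and had 0.61, 0.75, 0.01 and 0.81. Of 6 pentose phosphate genes, 1, 5, 4 and 3 were called higher and 0 lower in each exposure. *F08F8.7* of that list was called in all 4, with log2 fold changes of 0.61, 0.77, 0.54 and 0.47, and *rpia-1*, ribose-5-phosphate isomerase, in exposures 2 to 4, with 0.42, 0.43, 0.40 and 0.33.

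Of 14 genes for enzymes and transporters around pyruvate and glycolytic intermediates, 3, 6, 3 and 6 were called higher in exposures 1 to 4, where 13.3, 37.2, 12.4 and 27.1% of all genes were. Called lower were 0, 7, 0 and 4 of the 14, where 7.40, 36.3, 17.7 and 23.0% of all genes were. *gpdh-1*, a glycerol-3-phosphate dehydrogenase that diverts a glycolytic intermediate to glycerol, had log2 fold changes of 1.85, 3.95, 0.80 and 2.98 and was called higher in exposures 1, 2 and 4. *mdh-1*, a malate dehydrogenase, was called higher in all 4, with log2 fold changes of 0.63, 0.95, 0.69 and 0.68. *gpdh-2*, a gene of the same family as *gpdh-1*, was called higher in exposures 2 to 4 and had 0.41, 0.73, 0.38 and 0.24. *mpc-1*, a subunit of the mitochondrial pyruvate carrier, was called lower in exposure 2 (−0.52 ± 0.09, adjusted p = 0.000299), a gene named after its values were seen.

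As a check of the oxygen treatment, 6 genes known as targets of HIF-1 were followed. Of these, 2, 6, 3 and 3 were called higher in exposures 1 to 4 and 0, 0, 0 and 1 lower. The shares of all genes called were 13.3, 37.2, 12.4 and 27.1% higher and 7.40, 36.3, 17.7 and 23.0% lower. *F22B5.4* and *phy-2*, a subunit of prolyl 4-hydroxylase, were called higher in all 4 exposures, *F22B5.4* with log2 fold changes of 4.17, 4.35, 2.44 and 4.06 and *phy-2* with 3.34, 5.13, 3.03 and 2.49. *cysl-2*, a cysteine synthase family gene, was called in exposures 2 to 4 and had 0.91, 3.14, 1.59 and 1.25. *rhy-1*, a HIF-1 target that itself restrains HIF-1, was called higher in exposure 2 (0.38 ± 0.10, adjusted p = 0.00589) and lower in exposure 4 (−1.60 ± 0.37, adjusted p = 0.00808), and is named after its values were seen. The summed level of the 6 genes was 506 to 645 CPM in hypoxia and 145 to 244 CPM in normoxia in exposure 1, and 1167 to 1326 CPM in hypoxia and 132.5 to 145 CPM in normoxia in exposure 2. In exposure 3 the sum was 435 to 540 CPM in hypoxia and 122 to 194 CPM in normoxia. In exposure 4 the sum was 463 to 504 CPM in hypoxia and 137 to 316 CPM in normoxia.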

How the data were processed

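The authors enriched poly(A) RNA from frozen whole worms, made directional libraries and sequenced them, trimmed reads with cutadapt 4.0, aligned them with Bowtie2 to the *C. elegans* genome (WS235 in the methods) and used featureCounts to assign them to genes. The deposited table holds whole-number counts without normalization, and all 24 columns were used. The strand setting, the treatment of reads that fit several copies, and the other versions are not given in the sources used here. The authors' 4 tables of DESeq2 fold changes and p-values were not used. Gene names and coordinates come from Ensembl 115 (WBcel235).

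Within an exposure, genes with a summed count of 350 or more in its 6 libraries were tested in R 4.3.3 with edgeR 4.0.16 (TMM, glmQLFit, glmQLFTest). A joint fit of the 24 libraries over 12517 genes tested differences between exposures. CPM used TMM factors over all libraries, and RPKM divided them by exon length. Alone, 3 libraries against 3 allow no exact p below 0.1, so the tests borrow the spread across genes, and n is 3 per group throughout. Replicates are labelled biological, and pairs of them differed by more than counting noise (chi-square per gene of 7.22 to 630.2 over 24 pairs). The pipeline was tested on simulated data.

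Library values are given for members called in the same direction in at least 3 exposures, called in opposite directions, or among the 5 smallest p for a difference among exposures, and for their near-identical paralogs. Of other lists, up to 4 genes called in at least 3 exposures are named, by mean absolute log2 fold change. The members and lists were chosen with earlier results of these data known. Alternatives were DESeq2 1.42.0, limma 3.58.1, upper-quartile normalization, other filters, the joint fit, the replicate number as a block, fits without ribosomal RNA genes, summed paralogs, a minimum fold change and each library left out. No genome or protein sequence was used here.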

Additional observations from a re-analysis of the deposited data

Results flagged for a closer look

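For each gene below, a test of the difference itself (a contrast in edgeR's fit of all 24 libraries, Benjamini-Hochberg adjusted over 12517 genes) found that the hypoxia effect of one exposure differed from that of the one before. Values are differences of log2 fold changes, and all use the libraries of exposure 2. Exposure 2 minus exposure 1 gave positive differences for *aldo-1* (0.82), *pck-1* (0.78), *enol-1* (0.69), *ldh-1* (0.65), *pyk-1* (0.59), *pfk-1.1* (0.54), *gpi-1* (0.34), *pgk-1* (0.34), *ipgm-1* (0.34), *dlat-1* (0.28) and *fbp-1* (0.26), and negative ones for *pck-2* (−1.34), *aldo-2* (−0.74) and *hxk-1* (−0.36). In *pck-2* and *aldo-2* the normoxia group of exposure 2 was the high one.

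Exposure 3 minus exposure 2 gave negative differences for *pfk-1.2* (−1.84), *aldo-1* (−1.22), *pck-1* (−1.13), *ldh-1* (−0.80), *gpd-2* (−0.67), *pfk-1.1* (−0.66), *enol-1* (−0.64), *fbp-1* (−0.41), *tpi-1* (−0.37), *ipgm-1* (−0.37), *pgk-1* (−0.34), *dlat-1* (−0.21) and *dld-1* (−0.18), and positive ones for *pck-2* (0.92), *gpd-1* (0.84), *aldo-2* (0.64), *gpd-4* (0.63) and *hxk-1* (0.58).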

How the results depend on the processing

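No called member turned direction in any alternative run. A minimum log2 fold change of 1 in size left 4, 8, 1 and 6 members called higher in exposures 1 to 4 and 0, 1, 1 and 0 lower. The joint fit of the 24 libraries called 17 higher and 4 lower in exposure 1 (all genes 21.9 and 22.7%) and 3 lower in exposure 4 (all genes 12.7%). With exposure 2 left out, 2 members differed in effect (all genes 24.9%) and 4 in normoxia level (all genes 21.8%). Other counts stayed within 1.5 times of those reported under DESeq2, limma (differences between exposures), upper-quartile normalization, both filters, summed paralogs and the removal of ribosomal RNA genes, where 0 members differed between exposures 4 and 1. With each library left out, 6 to 15 members were called higher in exposure 1 (fewest without normoxia replicate 2, most without hypoxia replicate 2), 20 to 21 in exposure 2, 7 to 12 in exposure 3 and 15 to 18 in exposure 4. Called lower were 0 to 3, 7 to 7, 1 to 3 (1 without normoxia replicate 1 of exposure 3) and 3 to 6 (3 without hypoxia replicate 2 of exposure 4). The effect differed for 19 to 24 among exposures, for 12 to 16 between exposures 2 and 1, for 14 to 21 between 3 and 2 and for 0 to 1 between 4 and 1, and normoxia level for 16 to 22. In exposure 1, 9.23% of all genes were called higher without normoxia replicate 2 and 20.6% without hypoxia replicate 2. The share of all genes was not computed for the other fits without 1 library or for the minimum fold change. Their counts are therefore not set against it. The cause of these movements was not tested.

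Whether replicate numbers pair the samples is not stated in the labels. Deviations of same-numbered hypoxia and normoxia libraries correlated between −0.31 and 0.32, above 0.1 in 2 of 12 cases. In exposures 3 and 4 all of these correlations were positive, from 0.04 to 0.16. With 3 libraries per group they cannot decide whether samples were paired. With the replicate number as a block, 7, 20, 10 and 17 members were called higher and 0, 7, 2 and 5 lower in exposures 1 to 4, and 19, 11, 17 and 0 members differed in effect among exposures, between 2 and 1, 3 and 2, and 4 and 1, with 16 differing in normoxia level. In exposure 1 the block fit called 10.2% of all genes higher and 3.75% lower. The share of all genes was not computed for the other counts with the block.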
